A study of Mus musculus with 12 samples.

Results

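Expression of 45 genes of the cell cycle and mitosis was examined in 12 subcutaneous pancreatic tumors of the mouse. Their hosts never received doxycycline (dox), the inducer of mutant p53R270H, received it throughout, or had it withdrawn. The genes were chosen by name, and 45 of 45 were found among the 22630 genes measured. All 45 passed the count filter used for testing, with at least 98 reads in every tumor (the lowest was Cdc25c), and their mean level over the 12 tumors ran from 1.68 RPKM for E2f2 to 203 RPKM for Cdk4. RPKM is a read level scaled to the length of a gene's exons and to the mapped reads of the library. By role the list holds 5 cyclins and kinases of G1, 6 regulators of the G1/S transition, 8 genes of replication licensing, 4 of DNA synthesis, 8 regulators of G2/M, 12 of mitosis and 2 general markers of proliferation.

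All tumors grew from KCip53-1 cells, a single line sorted for the dsRed reporter from tissue of a mouse carrying Ptf1a-Cre, TREp53R270H and R26-rtTa, which all 3 groups share. The study used dsRed as a stand-in for p53R270H expression and kept its KCip53 lines in culture with dox. By that account the no-dox cells had met dox before injection, and the group names refer to the hosts. Cre in the pancreatic epithelium turns on rtTa, the dox-dependent activator of p53R270H and dsRed, and effects of dox itself and of the transgene cannot be told apart here. The study's sequencing found the endogenous wild-type copies of p53 missing from its KCip53 tumor cell lines. By that account wild-type p53 in these tumors would come from host cells, which was not tested. NSG hosts, immunodeficient mice of 8 to 10 weeks without mature lymphocytes, received 500000 cells per site at a pair of sites. No-dox mice never received dox (n = 4 tumors). Plus-dox mice drank 0.2 g/l dox with 5% sucrose for 36 days (n = 4), while off-dox mice had 33 days of it and then 3 days of withdrawal (n = 4), although the study's text places dox removal at the time when tumors could be felt. The labels do not say which tumors shared a mouse, so the p-values below measure the spread between tumors and would be too small where 1 animal gave more than 1 tumor. RNA came from whole tumors, in which fewer dividing cells and less RNA per cell cannot be told apart.

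Cell division is driven by cyclins that activate cyclin-dependent kinases (CDKs) in sequence. D-type cyclins with Cdk4 and Cdk6, then E-type cyclins with Cdk2, inactivate the retinoblastoma protein and free E2F factors, which switch on the genes of replication. Later, A- and B-type cyclins with Cdk1, together with the factors Foxm1 and Mybl2, turn on the genes that build the spindle and separate the chromosomes. Wild-type p53 restrains this program through the CDK inhibitor p21, encoded by Cdkn1a, and the loss of G1 control is a regular feature of pancreatic cancer.

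Counted reads per tumor ran from 25673348 to 33137609 in no-dox, from 20784597 to 30208368 in plus-dox and from 19845923 to 25088486 in the off-dox group. Genes took up 88.4% to 89.4% of the mapped reads in no-dox tumors against 82.2% to 87.1% in plus-dox and 81.1% to 85.8% in off-dox tumors, and the part of this difference in the results was not tested. Trp53, whose reads include the transgene where the sequences match, had 48.2, 57.4, 40.1 and 45.2 RPKM in no-dox, 49.8, 56.0, 40.4 and 47.9 in plus-dox and 44.2, 41.6, 45.4 and 44.9 in off-dox tumors. Its groups overlapped, so it did not mark the induction. Epithelial markers separated plus-dox from no-dox tumors by their summed level only. The summed level of 10 markers was 2326 to 3137 RPKM in no-dox, 1366 to 2059 RPKM in plus-dox and 1079 to 2689 RPKM in off-dox tumors, and Krt8, a keratin of these cells, was at 830 to 973, 504 to 588 and 318 to 810 RPKM. By these levels the plus-dox tumors lay below all no-dox tumors. By the mean log2 CPM (read counts scaled to library size) of the same 10 markers, the groups overlapped. This mean ran from 7.30 to 8.25 in no-dox, 4.77 to 7.78 in plus-dox and 6.22 to 7.96 in off-dox tumors. The part of these shifts in the values of the cell cycle genes was not tested. Plus-dox tumor 2 and off-dox tumor 4 were lowest by the mean log2 CPM, at 4.77 and 6.22 against 6.54 to 8.25 in the other 10 tumors. By the summed level off-dox tumor 3 was lowest. Calls, medians and the fold change of E2f1 are given with and without plus-dox tumor 2 and off-dox tumor 4. The fold changes of Cdk6, Foxm1 and Rrm2 are given with them only. Xist reached 4.25 and 4.89 RPKM in plus-dox tumors 3 and 4 and at most 0.05 RPKM elsewhere.

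The first question was whether the cell cycle genes differed between groups. They did not at the limits used by the study, that is, an adjusted p under 0.1, a change of more than 1.5-fold, a mean above 0.25 RPKM and a length above 250 bp. With the edgeR quasi-likelihood test, 0 of the 45 genes met these limits between plus-dox and no-dox tumors, where 0% of all 17561 genes tested did. Between off-dox and no-dox tumors the count was also 0 of 45, beside 1.34% of all genes, and between off-dox and plus-dox tumors it was 0 of 45 beside 0%. DESeq2 with moderated fold changes likewise called 0 of the 45 in the first comparison (0.583% of all genes), 0 in the second (2.63%) and 0 in the third (0.0103%).

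Below those limits the genes had more negative than positive fold changes in tumors of hosts given dox. Between off-dox and no-dox tumors 35 of the 45 genes had a negative log2 fold change, with a median of -0.23 beside 0.01 over all genes tested. Of the 45, 10 had an unadjusted p under 0.05 and all were lower off dox, namely Cdk4, Mcm2, Mcm3, Mcm5, Mcm6, Mcm7, Rrm1, Tyms, Aurkb and Cdc20. This compares with 9.48% of all genes that were lower at this p, and 0 of the 45 were higher, beside 10.9%. For plus-dox against no-dox the median was -0.09 beside 0.01 over all genes, with 30 of 45 negative. There, 3 genes were lower at an unadjusted p under 0.05 (Cdk4, Mcm7 and Tyms, beside 5.67% of all genes) and 0 were higher (beside 8.00%). Both comparisons use the same 4 no-dox tumors. For off-dox against plus-dox the median was -0.14, beside -0.00 over all genes, but -0.0041 without plus-dox tumor 2 and -0.25 without plus-dox tumor 3, and 0 genes were higher or lower at an unadjusted p under 0.05 (beside 1.25% and 1.81%).

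**Figure D1:**
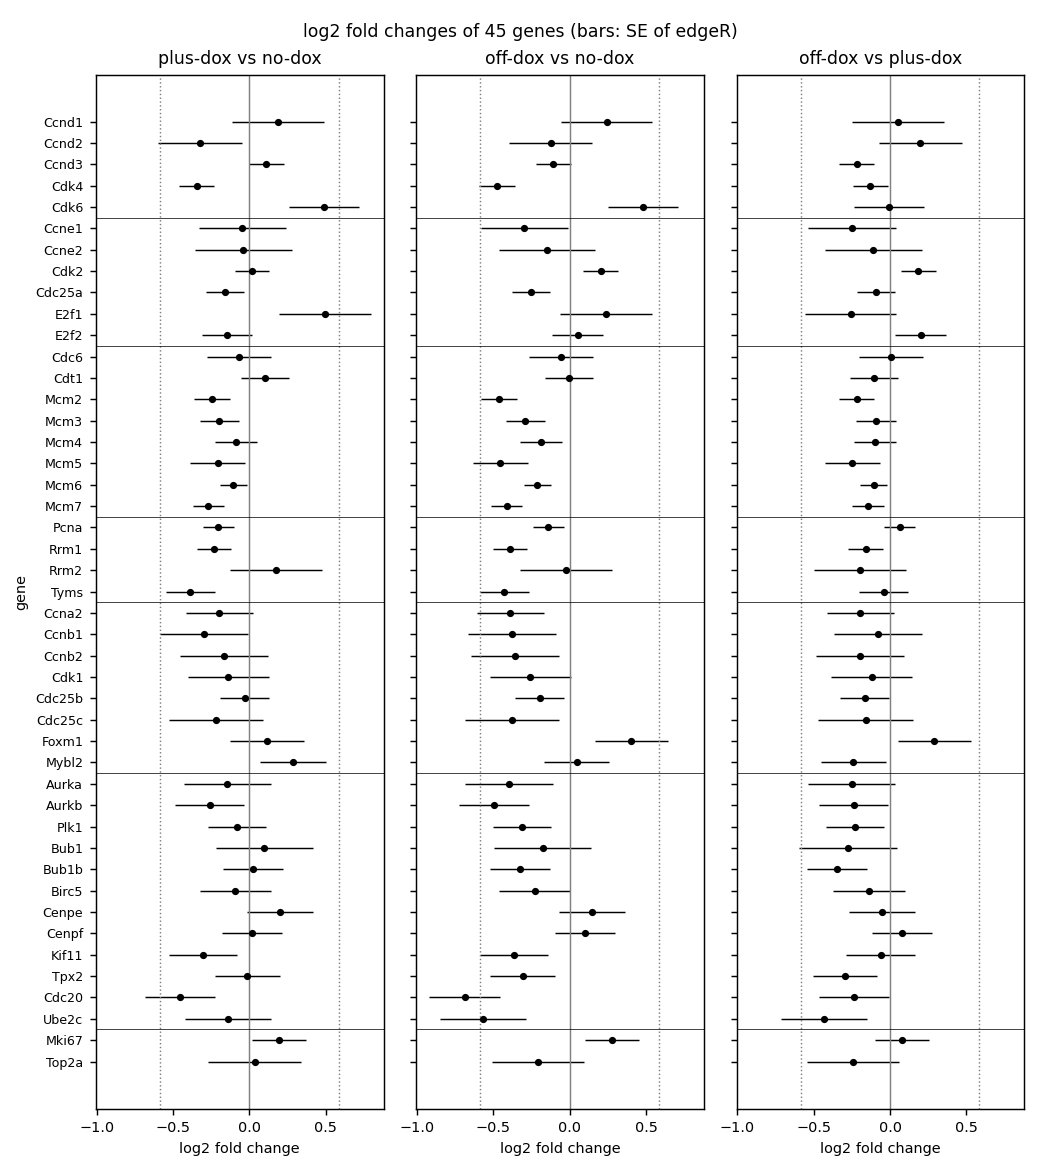
Log2 fold changes (x axes) of the 45 genes (y axis, grouped by role from G1 at the top to proliferation markers at the bottom) in the 3 comparisons, with bars for the standard error of edgeR and dotted lines at a change of 1.5-fold. Cdc20 off dox against no dox is the only point past a dotted line, and 35 of 45 points lie left of 0 in that panel.

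Using the adjusted p alone, 3 genes passed between off-dox and no-dox tumors, namely Cdk4, Mcm2 and Mcm7, all lower off dox, beside 1.38% of all genes that were lower by this rule. None of the 3 kept this adjusted p when any single no-dox tumor was left out. The same held without off-dox tumor 2, 3 or 4 and without plus-dox tumor 3 or 4. In these fits the calls over all genes at the study's limits also fell, from 235 to between 0 and 19. The loss was thus not particular to the 3 genes. Over all alternatives the edgeR adjusted p reached 0.22 for Cdk4, 0.23 for Mcm2 and 0.22 for Mcm7. The stretch of DNA around the transcription start of these genes, and of Cdc20, which had the largest fold change, is shown here because E2F, the CHR element and the NF-Y box in such stretches are the textbook routes by which replication and mitosis genes are switched together. The sequences are from RefSeq (build GRCm38.p6), run 5′ to 3′ on the gene's strand from 250 bases before the start to 30 bases after it, and carry in capitals each match on either strand to the CHR core TTTGAA, the NF-Y box CCAAT or the E2F words TTTGGCGC, TTTCGCGC, TTTCCCGC and TTTGCCGC. Cdk4 lies at chr10:127063285-127063564 on the plus strand, and Mcm2 at chr6:88898751-88899030, Mcm7 at chr5:138171854-138172133 and Cdc20 at chr4:118437314-118437593 on the minus strand.
Cdk4: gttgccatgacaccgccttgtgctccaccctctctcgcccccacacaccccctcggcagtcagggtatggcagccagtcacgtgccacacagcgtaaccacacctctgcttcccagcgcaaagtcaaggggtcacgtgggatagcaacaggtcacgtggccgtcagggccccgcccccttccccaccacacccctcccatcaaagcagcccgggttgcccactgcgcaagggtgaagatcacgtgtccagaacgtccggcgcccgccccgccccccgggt
Mcm2: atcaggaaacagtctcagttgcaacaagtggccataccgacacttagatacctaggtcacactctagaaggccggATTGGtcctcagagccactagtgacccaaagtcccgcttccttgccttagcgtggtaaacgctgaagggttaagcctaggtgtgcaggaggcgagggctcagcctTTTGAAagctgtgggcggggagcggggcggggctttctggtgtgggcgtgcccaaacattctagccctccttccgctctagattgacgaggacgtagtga
Mcm7: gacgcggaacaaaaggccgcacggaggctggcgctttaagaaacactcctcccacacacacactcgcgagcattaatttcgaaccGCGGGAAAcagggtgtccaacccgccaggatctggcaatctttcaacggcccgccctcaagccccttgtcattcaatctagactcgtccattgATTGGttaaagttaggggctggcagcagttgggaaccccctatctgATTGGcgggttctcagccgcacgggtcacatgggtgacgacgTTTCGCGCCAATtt
Cdc20: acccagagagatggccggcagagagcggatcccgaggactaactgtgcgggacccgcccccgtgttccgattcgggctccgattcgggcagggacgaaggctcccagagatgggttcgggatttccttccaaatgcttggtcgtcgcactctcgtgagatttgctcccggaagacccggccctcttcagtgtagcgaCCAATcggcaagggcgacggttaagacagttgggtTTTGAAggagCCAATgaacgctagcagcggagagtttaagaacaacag

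The 4 stretches differ in the words they hold. That of Cdk4 holds 0 matches. Letters that match on the opposite strand read ATTGG for the NF-Y box and GCGGGAAA for the E2F word of Mcm7. In Mcm2 the CHR core begins 70 bases before the start and an NF-Y box 175 bases before it. Mcm7 has 2 promoters in the table, and the one with more kinds of these words is shown. It holds 2 E2F words, and the one that begins 17 bases after the start shares its last base with an NF-Y box. In Cdc20 the CHR core at 18 bases before the start sits between NF-Y boxes that begin 53 and 8 bases before it.

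Of the 45 genes, 36 have an entry in the promoter table (9 do not and were not searched), each searched from 250 bases before to 50 bases after the start. E2F words were found in 10 of the 36 (27.8%, beside 2.60% of all 27025 genes in the table), among them 6 of the 7 licensing genes and 0 of the 10 mitosis genes. NF-Y boxes were found in 27 of the 36 (75.0% beside 41.1%), and in 9 of the 10 mitosis genes. The CHR core was found in 13 of the 36 (36.1% beside 20.2%), that is, in 7 of 10 mitosis genes and 1 of 7 licensing genes. These are matches of letters and not measured binding sites.

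Among the G1 genes, Cdk4 and Cdk6, the partner kinases of D-type cyclins, had fold changes of opposite sign against no-dox, but only Cdk4 separated any groups. Cdk4 (chr10:126500659-126504338 of mm9, the build of the counts) had 246, 248, 269.7 and 213 RPKM in no-dox tumors 1 to 4, 222, 193, 164 and 187 in plus-dox tumors, and 189.7, 149, 169.7 and 180.3 in off-dox tumors. Every off-dox tumor was below every no-dox tumor, and plus-dox tumor 1 alone reached into the no-dox range. The means were 244 ± 23.6, 191 ± 24.02 and 172 ± 17.7 RPKM (SD, n = 4 each). The log2 fold change off dox against no dox was -0.48 (standard error, SE, 0.12, a 1.39-fold difference, edgeR adjusted p = 0.088, exact permutation p = 0.029, the smallest that 4 against 4 tumors allow). Against no-dox the plus-dox tumors differed by -0.35 (SE 0.12, edgeR adjusted p = 0.33). Cdk6 had 6.66, 6.18, 7.53 and 6.97 RPKM in no-dox, 7.07, 12.8, 8.83 and 9.36 in plus-dox and 6.46, 8.64, 8.91 and 13.2 in off-dox tumors. The Cdk6 groups overlapped, and its highest values were in plus-dox tumor 2 and off-dox tumor 4. Its log2 fold changes against no-dox were 0.49 and 0.48 (SE 0.23 for both, edgeR adjusted p = 0.37 and 0.26).

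**Figure D2:**
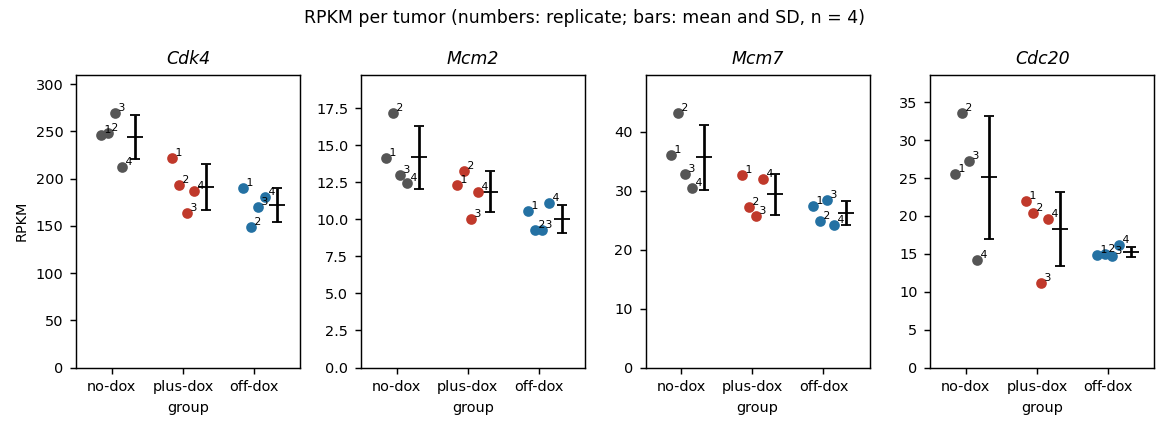
RPKM (y axes, from 0) of Cdk4, Mcm2, Mcm7 and Cdc20 in each of the 12 tumors by group (x axes), where numbers beside the points are the tumor's replicate number and bars give the mean and SD of 4 tumors. For Cdk4, Mcm2 and Mcm7 all off-dox points lie below all no-dox points, whereas Cdc20 of no-dox tumor 4, at 14.1 RPKM, lies below the off-dox values.

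The 3 D-type cyclins, which bind Cdk4 and Cdk6 in response to growth signals, showed no shared direction. Ccnd1 was the most abundant, at 98.7, 83.9, 130.2 and 101 RPKM in no-dox, 93.0, 185, 90.9 and 101 in plus-dox and 82.9, 105, 103 and 187 in off-dox tumors. Ccnd2 had 43.7, 48.4, 33.1 and 50.0 RPKM in no-dox, 46.9, 16.0, 36.6 and 40.0 in plus-dox and 47.5, 45.02, 29.2 and 35.6 in off-dox tumors. Ccnd3 stayed within a narrow range, with 21.1, 24.2, 20.9 and 20.6 RPKM in no-dox, 22.0, 27.7, 20.7 and 22.6 in plus-dox and 21.1, 16.99, 19.2 and 21.4 in off-dox tumors. The groups overlapped for all 3 cyclins in all 3 comparisons. Ccnd3 had the smallest p of the 45 genes between off-dox and plus-dox tumors, at a log2 fold change of -0.22 (SE 0.11, edgeR adjusted p = 1.00, exact permutation p = 0.17).

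Of the regulators of the G1/S transition, Ccne1 and Ccne2 encode the cyclins that activate Cdk2. Ccne1 had 4.07, 4.92, 4.72 and 2.11 RPKM in no-dox, 3.72, 5.64, 2.59 and 3.21 in plus-dox and 2.87, 2.80, 2.97 and 3.89 in off-dox tumors. Ccne2 had 4.64, 4.73, 7.09 and 2.77 RPKM in no-dox, 4.81, 6.94, 2.75 and 4.14 in plus-dox and 2.92, 4.64, 4.66 and 4.74 in off-dox tumors. For both genes the lowest no-dox tumor was number 4 and the highest plus-dox tumor number 2. E2f1, the activator of replication genes, had 6.99, 6.002, 7.58 and 5.72 RPKM in no-dox, 6.07, 15.6, 7.47 and 7.62 in plus-dox and 5.70, 6.39, 7.10 and 11.1 in off-dox tumors. Its log2 fold change of 0.50 (SE 0.30, edgeR adjusted p = 0.46) was the largest in size between plus-dox and no-dox tumors and rested on plus-dox tumor 2, since it was 0.11 without tumors plus-dox 2 and off-dox 4. Cdk2, the kinase itself, Cdc25a, the phosphatase that activates it, and E2f2 had log2 fold changes between -0.25 and 0.20 in all 3 comparisons.

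The 6 MCM proteins, Mcm2 to Mcm7, form the ring-shaped helicase that Cdc6 and Cdt1 load onto origins before DNA synthesis. Off dox, all 8 licensing genes had negative log2 fold changes against no-dox, with a median of -0.25, and 5 of them, each an MCM gene, were lower at an unadjusted p under 0.05, beside 9.48% of all genes. Mcm2 (chr6:88833468-88848774 of mm9) had 14.1, 17.2, 13.001 and 12.4 RPKM in no-dox, 12.3, 13.3, 10.0 and 11.9 in plus-dox and 10.5, 9.25, 9.27 and 11.1 in off-dox tumors. No off-dox value reached the no-dox range, while plus-dox tumor 2 lay within the no-dox range and plus-dox tumor 3 within the off-dox range. Its log2 fold change off dox against no dox was -0.46 (SE 0.12, a 1.38-fold difference, edgeR adjusted p = 0.090, exact permutation p = 0.029). Between off-dox and plus-dox tumors it was -0.22 (SE 0.12, edgeR adjusted p = 1.00).

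Mcm7 (chr5:138605817-138613090) followed the same order of groups. It had 36.0, 43.2, 32.9 and 30.4 RPKM in no-dox, 32.7, 27.1, 25.7 and 31.97 in plus-dox and 27.3, 24.9, 28.3 and 24.2 in off-dox tumors. All off-dox tumors were below all no-dox tumors, at a log2 fold change of -0.41 (SE 0.10, a 1.33-fold difference, edgeR adjusted p = 0.090, exact permutation p = 0.029). In plus-dox against no-dox it was -0.27 (SE 0.10, edgeR adjusted p = 0.33, exact permutation p = 0.057). Mcm6 also separated off-dox from no-dox tumors (log2 fold change -0.21, SE 0.09, edgeR adjusted p = 0.21), whereas Mcm3, Mcm4 and Mcm5 did not, at -0.29, -0.19 and -0.45. The loading factors Cdc6 and Cdt1 were at -0.06 (SE 0.21) and -0.00 (SE 0.16), and whether they differed from the helicase genes was not tested.

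All 4 genes of DNA synthesis had negative log2 fold changes off dox against no dox, with a median of -0.26. Rrm1 and Rrm2 encode the large and the small subunit of ribonucleotide reductase, which makes deoxynucleotides. Rrm1 had 24.6, 28.0, 23.9 and 19.9 RPKM in no-dox, 22.1, 23.0, 15.9 and 20.6 in plus-dox and 17.8, 18.0, 17.4 and 18.7 in off-dox tumors, so every off-dox value lay below every no-dox value (log2 fold change -0.39, SE 0.11, edgeR adjusted p = 0.11). Rrm2, by contrast, had 21.1, 22.6, 23.1 and 14.8 RPKM in no-dox, 18.4, 38.8, 15.2 and 18.7 in plus-dox and 15.5, 17.5, 16.0 and 29.0 in off-dox tumors. Its log2 fold change off dox was -0.02 (SE 0.30, edgeR adjusted p = 0.97), with its highest values again in plus-dox tumor 2 and off-dox tumor 4. Tyms, which makes thymidylate, had 11.3, 13.1, 13.6 and 8.19 RPKM in no-dox, 10.8, 9.03, 6.74 and 8.66 in plus-dox and 9.07, 7.45, 9.14 and 7.99 in off-dox tumors. Against no-dox it differed by -0.39 with dox and -0.43 off dox (SE 0.16 for both, edgeR adjusted p = 0.34 and 0.17). Pcna, the sliding clamp of DNA polymerases, had 139, 144, 145 and 108 RPKM in no-dox, 118, 123, 101 and 121 in plus-dox and 120.4, 129, 115 and 112 in off-dox tumors, and its groups overlapped throughout. Tyms and Pcna, as well as Ccnd3, Ccnb1, Ccnb2 and Aurkb, have pseudogenes of their name in RefSeq, so reads of near-identical copies may be split and their values are uncertain.

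Regulators of G2/M varied more within groups than between them. Ccna2, cyclin A, had 22.7, 25.5, 21.4 and 13.1 RPKM in no-dox, 19.2, 23.2, 10.7 and 18.7 in plus-dox and 13.3, 15.7, 16.4 and 16.1 in off-dox tumors. Ccnb1, cyclin B, had 20.8, 25.4, 27.6 and 10.4 RPKM in no-dox, 16.7, 23.4, 10.2 and 17.8 in plus-dox and 12.3, 15.2, 18.0 and 17.6 in off-dox tumors. Cdk1, the kinase that both cyclins activate, had 24.2, 25.1, 31.5 and 13.4 RPKM in no-dox, 22.7, 30.1, 12.96 and 19.5 in plus-dox and 16.4, 17.7, 20.2 and 22.7 in off-dox tumors. In each of these genes no-dox tumor 4 and plus-dox tumor 3 were low, and the no-dox mean was carried by tumors 1 to 3. The factor Foxm1 went the other way off dox, with 6.63, 7.41, 7.99 and 5.20 RPKM in no-dox, 6.76, 9.85, 5.82 and 6.83 in plus-dox and 5.43, 8.98, 8.54 and 12.2 in off-dox tumors. Its log2 fold change of 0.40 (SE 0.24) had an edgeR adjusted p of 0.36. Over the 8 genes, the log2 fold changes off dox against no dox ran from -0.39 to 0.40, and 0 had an unadjusted p under 0.05.

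Of the 12 mitosis genes, 10 had negative log2 fold changes off dox against no dox, with a median of -0.32. Cdc20, which activates the anaphase-promoting complex, had 25.5, 33.6, 27.2 and 14.1 RPKM in no-dox, 22.0, 20.4, 11.2 and 19.5 in plus-dox and 14.9, 15.01, 14.7 and 16.2 in off-dox tumors. The off-dox tumors lay close to each other, below no-dox tumors 1 to 3 but not below tumor 4. This gave the largest fold change among the 45 genes, -0.69 (SE 0.23, a 1.61-fold difference, edgeR adjusted p = 0.14, exact permutation p = 0.14). Ube2c, the ubiquitin-conjugating enzyme of the same complex, had 34.6, 44.6, 39.5 and 19.7 RPKM in no-dox, 28.6, 50.2, 19.6 and 26.1 in plus-dox and 21.5, 20.5, 22.6 and 26.2 in off-dox tumors. Its difference off dox against plus-dox, -0.43 (SE 0.28, edgeR adjusted p = 1.00, exact permutation p = 0.29), was the largest in that comparison, where plus-dox tumor 2 was the high value, and it was -0.09 without that tumor.

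Plk1, a kinase of spindle assembly, had 8.74, 12.1, 7.83 and 7.14 RPKM in no-dox, 8.37, 10.3, 5.30 and 9.67 in plus-dox and 6.97, 6.72, 7.52 and 6.94 in off-dox tumors. Birc5, survivin, a subunit of the chromosomal passenger complex, had 10.2, 10.2, 12.2 and 6.15 RPKM in no-dox, 9.20, 12.2, 6.07 and 8.82 in plus-dox and 6.02, 8.03, 9.84 and 8.497 in off-dox tumors. Bub1b, of the spindle checkpoint, had 7.69, 10.3, 6.60 and 5.13 RPKM in no-dox, 7.62, 9.35, 5.06 and 7.90 in plus-dox and 5.61, 6.34, 5.99 and 5.18 in off-dox tumors. All 3 genes overlapped between the groups of every comparison, and the largest difference was that of Bub1b off dox against plus-dox, -0.35 (SE 0.20, edgeR adjusted p = 1.00, exact permutation p = 0.14). The kinase genes Aurka and Aurkb were at -0.40 and -0.50 off dox against no dox (edgeR adjusted p = 0.45 and 0.24), and the kinetochore genes Cenpe and Cenpf at 0.14 and 0.10.

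Mki67, which encodes the Ki67 antigen scored in tissue sections, had 7.85, 11.8, 7.36 and 6.59 RPKM in no-dox, 10.1, 9.40, 7.05 and 11.70 in plus-dox and 8.30, 10.4, 11.6 and 9.37 in off-dox tumors. Its groups overlapped, and its log2 fold changes against no-dox were 0.20 with dox and 0.28 off dox (SE 0.18 for both, edgeR adjusted p = 0.60 and 0.39). Top2a, the topoisomerase of dividing cells, had 26.5, 36.8, 35.5 and 17.7 RPKM in no-dox, 25.5, 47.4, 17.7 and 27.8 in plus-dox and 17.9, 28.6, 21.5 and 30.2 in off-dox tumors. It differed by 0.04 with dox and -0.21 off dox (SE 0.30 for both, edgeR adjusted p = 0.96 and 0.72). A 1.5-fold change is 0.58 on the log2 scale. For Top2a a rise of that size with dox and a fall of that size off dox lie within 2 standard errors of the values. For Mki67 a rise of that size off dox does too. These changes were not excluded.

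Whether the tumors separated by group was counted in a second way, as genes whose log2 CPM did not overlap between the groups. Off dox against no dox, 5 genes were lower without overlap, namely Cdk4, Mcm2, Mcm6, Mcm7 and Rrm1 (11.1% of the 45, beside 5.69% of all genes), and 0 were higher (beside 5.85%). Between plus-dox and no-dox tumors Cdk4 alone was lower without overlap (beside 4.49%), although in RPKM its groups overlapped, and 0 genes were higher (beside 4.37%). For off-dox against plus-dox the counts were 0 higher and 0 lower, beside 0.649% and 0.752%.

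Many of the genes shared the same low or high tumors within a group. Group accounted for a median of 17.3% of a gene's variance in log2 CPM, beside 22.4% over the 14548 genes with a mean above 0.25 RPKM. It was 35.4% for licensing and 40.2% for DNA synthesis but 17.9% for mitosis and 11.6% for G2/M regulators. At the upper end were Cdk4 with 70.9%, Mcm7 with 68.4% and Mcm2 with 66.1%, and at the lower end Cdc6 with 0.834%. With so few tumors such a share is positive even where groups do not differ, and the shares were not tested. In no-dox tumors, number 4 was the lowest of the 4 for 37 of the 45 genes, and it was so for 28.0% of all genes. Plus-dox tumor 3 was lowest for 36 of 45 (20.01% of all genes) and off-dox tumor 1 for 22 of 45 (24.8%). Ccnd2 and Cdc25a ran against this, being highest in no-dox tumor 4 and off-dox tumor 1.

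**Figure D3:**
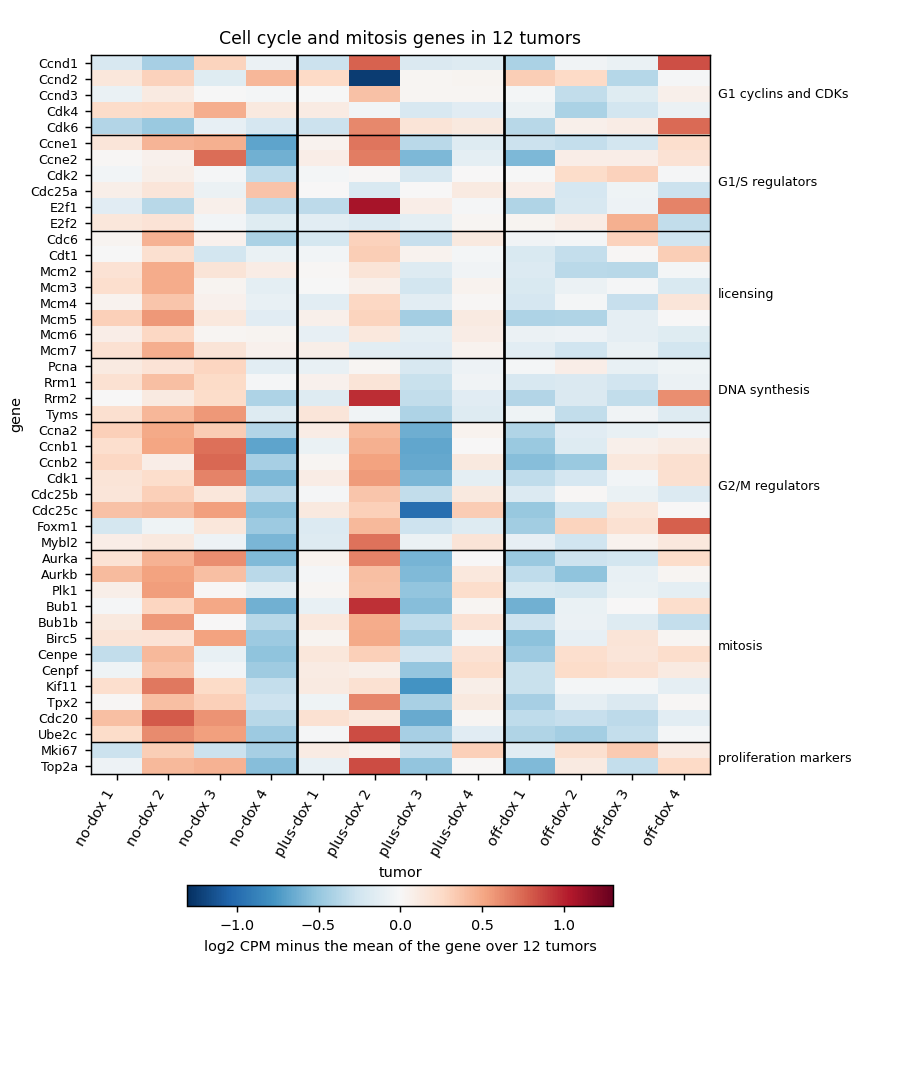
Log2 CPM of each of the 45 genes (rows, by role) minus its mean over the 12 tumors, for each tumor (columns, groups divided by vertical lines), with red for higher and blue for lower values. The columns of no-dox tumor 4, plus-dox tumor 3 and off-dox tumor 1 are blue through most of the G2/M and mitosis rows, while plus-dox tumor 2 is red there and dark blue for Ccnd2.

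The median of the 45 centred values was -0.34 in no-dox tumor 4, -0.32 in plus-dox tumor 3 and -0.28 in off-dox tumor 1, beside 0.36 in no-dox tumor 2 and 0.36 in plus-dox tumor 2, so the spread within groups was larger than the median difference between groups. The mean log2 CPM of 6 adipocyte markers was lowest in the same tumors of each group, at -1.51 in no-dox tumor 4, -1.06 in plus-dox tumor 3 and 0.07 in off-dox tumor 1, and ran from 1.72 to 5.79 in the other 9 tumors. Skeletal muscle markers, 8 in number, ranged from 0.49 to 4.32 in no-dox, 4.42 to 6.34 in plus-dox and 0.98 to 7.81 in off-dox tumors. Whether these cells took part in the differences of the cell cycle genes was not tested. Leaving out no-dox tumor 4 moved the off-dox against no-dox median of the 45 genes to -0.38. The count lower at an unadjusted p under 0.05 went from 10 to 17, now including Aurka, Ccna2 and Ccnb1. This was beside 8.21% of all genes, with 0 higher beside 9.73%. That tumor was the lowest no-dox tumor for 37 of these genes, so a move to lower values follows from its choice. Without no-dox tumor 1, 2 or 3 the counts at this p, in either direction, were 6, 6 and 9. In plus-dox against no-dox, without no-dox tumor 4, the median was -0.21 and the count 8 (beside 5.07%, with 0 higher beside 6.73%). In that comparison the median was 0.03 without plus-dox tumor 3 and -0.24 without plus-dox tumor 2, so its sign depended on plus-dox tumor 3.

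Plus-dox tumor 2 and off-dox tumor 4, the tumors with the lowest mean log2 CPM of epithelial markers, both lay above the other 10 tumors for 6 of the 45 genes, namely Ccnd1, Cdk6, E2f1, Cdt1, Rrm2 and Foxm1 in log2 CPM. This was 13.3% of the 45 beside 10.6% of all genes, a share near the background. Both lay below the other 10 for E2f2 alone, 2.22% of the 45 beside 14.5% of all genes. Ccnd1 was at 185 and 187 RPKM against 82.9 to 130.2 in the other 10 tumors, and E2f1 at 15.6 and 11.1 against 5.70 to 7.62. Cdk6 was at 12.8 and 13.2 RPKM against 6.18 to 9.36, and Rrm2 at 38.8 and 29.0 against 14.8 to 23.1. Ccnd2 had its lowest value, 16.0 RPKM, in plus-dox tumor 2 but 35.6 in off-dox tumor 4. These tumors came from different groups, and the part of the epithelial fraction in these values was not tested. Without both tumors, 0 of the 45 genes met the study's limits in any comparison. Off dox against no dox, 473 of all 17329 genes met them in that fit, beside 235 of 17561 with all tumors. Cdk4, Mcm2, Mcm7 and Rrm1 passed the adjusted p alone in that comparison. The medians were -0.24, -0.29 and -0.07 for plus-dox against no-dox, off-dox against no-dox and off-dox against plus-dox.

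**Figure D4:**
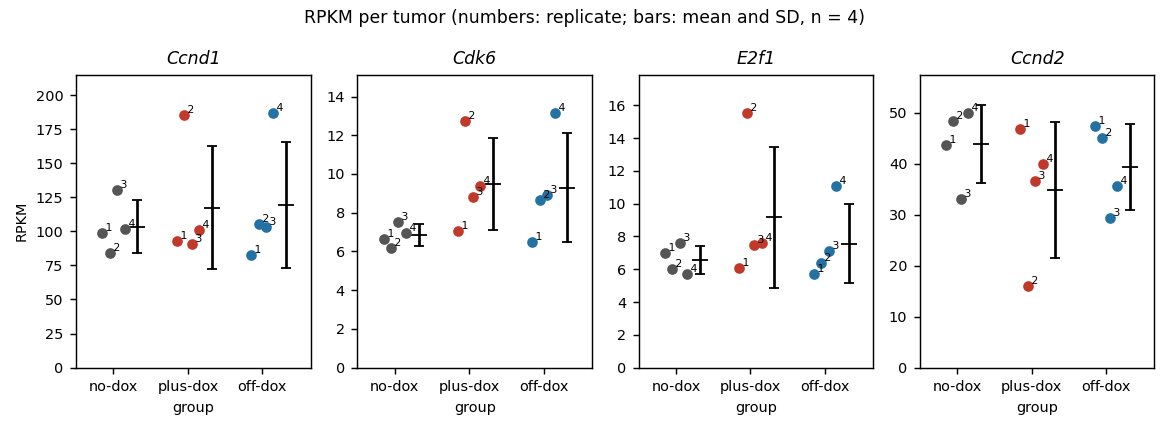
RPKM (y axes, from 0) of Ccnd1, Cdk6, E2f1 and Ccnd2 in each of the 12 tumors by group (x axes), with replicate numbers beside the points and bars for the mean and SD of 4 tumors. Plus-dox tumor 2 and off-dox tumor 4 are the 2 highest points for Ccnd1, Cdk6 and E2f1, and plus-dox tumor 2 is the lowest for Ccnd2.

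Fold changes in these libraries also followed the exonic length of genes, which was seen after the comparisons had been made. Off dox against no dox, genes shorter than 2000 bp had a median log2 fold change of -0.12, those of 2000 to 4000 bp of -0.05 and those longer than 4000 bp of 0.14, over 4938, 5729 and 3881 genes. The 45 genes had medians of -0.38, -0.25 and -0.06 in the same classes, over 11, 23 and 11 genes, and so lay below all genes in each class. Lower values at an unadjusted p under 0.05 were found in 3, 7 and 0 of them, beside 16.2%, 11.9% and 2.68% of all genes. Cdk4 has 1346 bp, Cdc20 1768 bp, Mcm7 2396 bp, Mcm2 3371 bp and Mki67 10075 bp.

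A fit with the length trend of each tumor removed kept the off-dox against no-dox median at -0.21, beside 0.04 over all genes. It lowered Cdk4 to -0.31, Mcm7 to -0.32 and Mcm2 to -0.44 (edgeR adjusted p = 0.19, 0.15 and 0.14), so 0 genes passed the adjusted p. At an unadjusted p under 0.05, 7 genes were lower (Cdc20, Cdk4, Mcm2, Mcm5, Mcm7, Rrm1 and Tyms, beside 6.24% of all genes), and Cdk2 and Cdk6 were higher (beside 10.1%). In plus-dox against no-dox tumors Tyms alone was lower (beside 3.75%) and Cdk6 alone higher (beside 7.34%). Mki67 turned from 0.28 to -0.04 off dox and from 0.20 to -0.02 with dox.

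**Figure D5:**
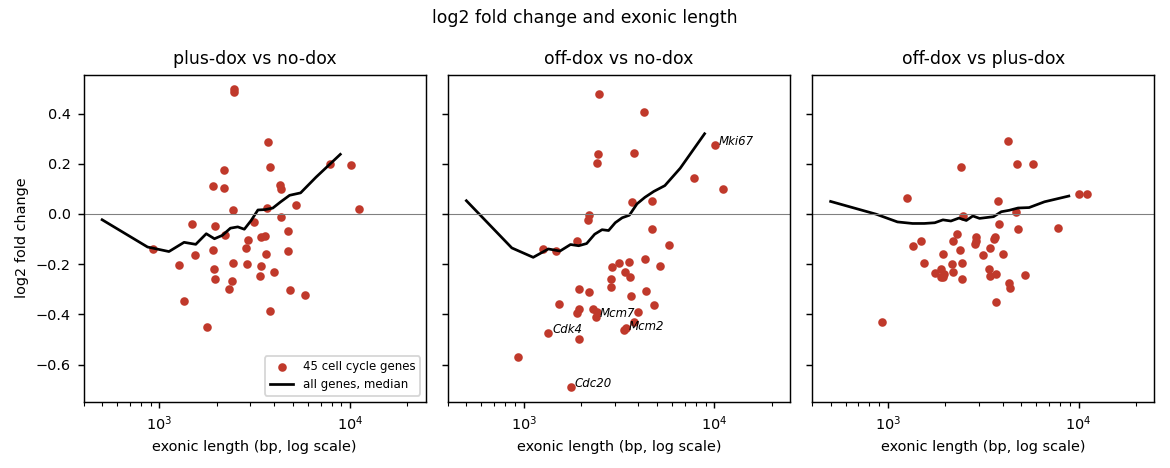
Log2 fold change (y axis) against exonic length in bp (x axes, log scale) for the 45 genes (red points) and the median of all genes with a mean above 0.25 RPKM in classes of length (black line), in the 3 comparisons. Beyond the shortest genes the black line rises with length in the comparisons with no-dox tumors, and off dox against no dox most red points lie below it while Mki67 lies near it.

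Of 109 other cell cycle genes listed for comparison, 107 could be tested, and 0 met the study's limits in any comparison. Off dox against no dox, 13 were lower (beside 9.48% of all genes) and 3 higher (beside 10.9%) at an unadjusted p under 0.05, with a median log2 fold change of -0.13. With dox against no dox, 4 were lower (beside 5.67%) and 1 higher (beside 8.00%), with a median of -0.11. Off dox against plus-dox, 1 was higher (beside 1.25%) and 0 lower (beside 1.81%), with a median of -0.04. Rb1, the retinoblastoma gene, averaged 8.44 ± 1.19 RPKM off dox beside 6.34 ± 0.312 RPKM in the no-dox group (SD, n = 4), and its log2 fold change was 0.44 (SE 0.11, edgeR adjusted p = 0.090). Bub3, of the spindle checkpoint, had -0.40 (SE 0.11, edgeR adjusted p = 0.0996). These 2 of 107 were the only genes of this list past the adjusted p, where 607 of all 17561 genes passed it. Against plus-dox tumors Rb1 differed by 0.33 (SE 0.11, edgeR adjusted p = 1.00), the smallest p of the list in that comparison. Chaf1b, a chromatin assembly factor and the smallest p of the list with dox against no dox, averaged 8.11 ± 1.04 RPKM in plus-dox beside 11.2 ± 2.58 RPKM in no-dox tumors, and its log2 fold change was -0.46 (SE 0.16, edgeR adjusted p = 0.33).

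The CDK inhibitors act against the kinases above. Cdkn1a, the p21 gene, had 21.3, 23.9, 24.98 and 25.1 RPKM in no-dox, 22.4, 39.3, 36.2 and 23.98 in plus-dox and 33.4, 31.1, 24.2 and 34.4 in off-dox tumors. Its log2 fold changes against no-dox were 0.37 with dox and 0.40 off dox (SE 0.20 for both, edgeR adjusted p = 0.42 and 0.28), and the groups overlapped. Cdkn1b, the p27 gene, had 41.0, 38.5, 52.9 and 48.5 RPKM in no-dox, 43.2, 31.6, 40.6 and 38.3 in plus-dox and 43.9, 46.7, 39.9 and 44.9 in off-dox tumors, and differed from no-dox by -0.23 and -0.02 (SE 0.14 for both, edgeR adjusted p = 0.45 and 0.95). Cdkn2a, which encodes p16 and p19Arf, had 219, 172, 294 and 173 RPKM in no-dox, 185, 165, 137 and 160.0 in plus-dox and 155, 113, 157 and 155 in off-dox tumors. All off-dox tumors were below all no-dox tumors, at a log2 fold change of -0.54 (SE 0.18, edgeR adjusted p = 0.14, exact permutation p = 0.029).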

How the data were processed

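RNA from 12 bulk tumors, 4 per group, had been sequenced as unstranded 50-base single-end reads. According to the submitters' processing notes, CASAVA 1.8.2, Bowtie 0.12.8, TopHat 1.4.1 and bedtools 2.16.2 were used with build mm9. The authors counted reads over unambiguous exonic spans of RefSeq genes from base-wise coverage, so that the deposited estimated counts need not be whole, and they divided by summed exon length and mapped reads to give the deposited RPKM values. Groups were taken from the labels. A further allele of the line, shared by all groups, is not reported here.

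Estimated counts were rounded to whole numbers, 17561 genes whose summed count reached 10 were kept, and all 3 groups were fitted together with the edgeR 4.0.16 quasi-likelihood test, TMM scaling and Benjamini-Hochberg adjustment over all genes tested. A gene was called at an adjusted p under 0.1, a change above 1.5-fold, a mean above 0.25 RPKM and a length above 250 bp. Exact permutation tests were two-sided over 70 arrangements of 4 against 4 tumors. In simulated plus-dox and no-dox counts for 17410 genes, 86.5% of 200 genes changed by 2 on the log2 scale were recovered and 5.98% of calls were false. Genes were drawn independently there, and the changes were larger than any seen in the 45 genes, at most 0.69 in size. Recovery of changes as small as those was not simulated, so the 0 calls may include missed changes.

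The alternatives were DESeq2 1.42.0, limma 3.58.1 (voom, and log2 RPKM), other filters, scalings, pseudocounts and limits, each tumor left out, plus-dox tumor 2 and off-dox tumor 4 both left out, and a replicate block. Removal of the length trend (loess, span 0.5) and the length classes were added after seeing the data. R 4.3.3 and Python 3.11.15 were used. The 45 genes and all lists were chosen with earlier results of these data known. By the naming rule, values in every tumor were given for 20 representatives of the roles and, per comparison, for the 3 members of smallest p and the member of largest fold change. Outside the list the rule took Cdkn1a, Cdkn1b, Cdkn2a, Trp53 and the gene of smallest p per comparison, and other genes were named after their values were seen. Depth ran from 19845923 to 33137609 counted reads.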

Additional observations from a re-analysis of the deposited data

Results flagged for a closer look

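In 8 of the 96 sets of 4 tumors examined (the genes given in every tumor by the naming rule, and the median centred levels of the roles and of all 45 genes, in each group), the highest or lowest tumor lay far from the other 3 by Dixon's criterion, which chance alone meets in about 1 of 20 sets. Plus-dox tumor 2 accounted for 6 of them, of which 2 are a single observation, since the median of the G1 cyclins and CDKs is there the value of Ccnd3. It was high for Ccnd1 at 185 RPKM, for Ccnd3 at 27.7 RPKM, for Foxm1 at 9.85 RPKM and for Rrm2 at 38.8 RPKM, low for Ccnd2 at 16.0 RPKM, and high for the median centred level of the G1 cyclins and CDKs at 0.38 on the log2 scale. Off-dox tumor 4 was high for Ccne1 at 3.89 RPKM, and off-dox tumor 1 was low for Ccne2 at 2.92 RPKM.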

How the results depend on the processing

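The 45 genes gave 0 calls in all 3 comparisons under every alternative run, with exceptions off dox against no dox only. There DESeq2 without moderation called 1 gene, Cdc20, where it called 614 of 19346 genes in all. By the adjusted p alone, 3 genes passed in the main fit, namely Cdk4, Mcm2 and Mcm7. This was beside 1.38% of all genes that were lower by this rule. The same rule passed 0 to 5 of the 45 genes in the other fits, with 5 in both DESeq2 fits and in limma-voom. Of the other cell cycle genes, 2 of 107 passed by the adjusted p alone off dox against no dox, where 607 of all 17561 genes did. Leaving out single tumors gave 0 to 1 called, with 1 without off-dox tumor 1, where 786 of 17501 genes were called. Off dox against no dox, the median of the 45 genes stayed negative in all 24 alternatives, from -0.38 to -0.15. For plus-dox against no-dox it ran from -0.24 to 0.03, and for off-dox against plus-dox from -0.25 without plus-dox tumor 3 to -0.0041 without plus-dox tumor 2. Genes lower without overlap between plus-dox and no-dox tumors numbered 0 in RPKM and 2 without both plus-dox tumor 2 and off-dox tumor 4. Off dox against plus-dox that omission gave 1 gene higher and 2 lower. With fewer tumors an overlap is less likely, and no share of all genes is given for that omission. Its counts therefore cannot be compared with those of all tumors. Cdk4, Mcm2 and Mcm7 kept an adjusted p under 0.1 in 11, 10 and 9 of the 24 alternatives (edgeR, DESeq2 or limma adjusted p from 0.0079 to 0.22, 0.020 to 0.23 and 0.016 to 0.22) and lost it without any single no-dox tumor, without off-dox tumor 2, 3 or 4 and without plus-dox tumor 3 or 4. Without those tumors the calls over all genes at the study's limits also fell, from 235 to between 0 and 19. The cause of these shifts was not tested.

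With the replicate block, 0 genes were called in any comparison, 0 passed the adjusted p alone off dox against no dox (Cdk4 at -0.48, edgeR adjusted p = 0.14), and the median there was -0.22. Tumors of the same number did not deviate together (mean correlation -0.088 over 12 pairs, and 0 tumors matched best to their own number), so the numbers were not taken as pairs.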
